A study of Danio rerio with 5 samples.

Results

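Toluene, a benzene ring that carries a methyl group, is a solvent of paints and fuels, and the comparison described here sets young adult zebrafish exposed to toluene against fish kept in the vehicle DMSO. It rests on 2 of the 5 arrays of the series, the toluene array and the DMSO array, chosen by their treatment labels, and the other 3 arrays, of benzene, formaldehyde and a mixture of the 3 compounds called the BTF mix, serve as context. The compared features were the 9716 of 15502 probe sets that reached 7.02, the median level of the table, on at least 1 array, and 281 of them (2.89%) were at least 2-fold apart between the toluene and the DMSO array.

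Per the labels, all fish were wild type, of the AB line and young adult, with 1 common entry for sex that names neither males nor females, and they were exposed for 24 h at 28°C and were not fed during that time. All compounds were prepared in DMSO, so that the toluene, benzene, formaldehyde and mix groups carried the vehicle of the control group as well. Total RNA was labelled and hybridised to Affymetrix zebrafish arrays, which measure each transcript by 1 or several sets of short probes. The doses, the tissue or body part and the number of fish behind each array could not be taken from the sources used here.

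Each condition had 1 array, so none of the differences has replicates, a standard deviation or a p-value behind it, and the exposure cannot be told apart from differences between the fish that were sampled. Values are log2 levels made with RMA, a method that sets the probes of all arrays to a common distribution, so a difference of 1 is 2-fold and a difference of 2 is 4-fold. Differences are toluene minus DMSO, and a positive one means a higher level with toluene. In bulk RNA such as this, fewer cells of a type and less RNA per cell cannot be told apart.

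As background, toluene is oxidised on its methyl group by cytochromes P450 to benzyl alcohol, which alcohol and aldehyde dehydrogenases turn into benzoic acid, and the acid is conjugated and excreted. The solvent acts as a depressant on the nervous system of vertebrates. Fish answer many kinds of exposure with cortisol from the interrenal gland, which binds the glucocorticoid receptor and switches on target genes such as fkbp5, klf9, tsc22d3 and pck1. Skin, gill and gut are the surfaces that meet dissolved chemicals first.

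The markers fixed for each tissue showed that the RNA of both arrays came from many tissues. The 5 oocyte markers on the array lay between 10.53 and 13.67 with toluene and between 10.56 and 13.74 with DMSO. The 6 markers of the exocrine pancreas averaged 12.80 with toluene and 11.77 with DMSO, and the 5 of the epidermis 11.61 with toluene and 10.57 with DMSO. The 5 markers of the intestine averaged 8.97 with toluene and 7.93 with DMSO, and the 4 of skeletal muscle 13.14 with toluene and 12.56 with DMSO. Those of the intestine were split, with fabp2, alpi.2 and rbp2a at 2.11, 2.21 and 1.14 and cdh17 and vil1 at -0.14 and -0.09. The oocyte markers averaged 12.32 with toluene and 12.43 with DMSO. The 4 liver markers averaged 11.79 with toluene and 12.08 with DMSO. Of the 4 testis markers fixed, odf3b was not found under that symbol. None of the other 3 reached the median level on either array. Nor did the 1 marker of ionocytes, atp1a1a.5, at 3.78 with toluene against 4.14 with DMSO. The BTF mix array stood apart in this respect, with oocyte markers at a mean of 6.05 there, so its levels are given as context and not as a dose step. Many of these markers are also members of the gene groups described below, so their differences are no separate observation. The part of tissue content in the results of those groups was not tested.

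Of the 9716 probe sets, toluene lay at least 2-fold above DMSO in 205 (2.11%) and at least 2-fold below it in 76 (0.782%). On the DMSO array, 103 of the 205 were under the level filter, and on the toluene array 32 of the 76 were, so that these passed it only through their level on other arrays. Of the 205, 21 were under it on the toluene array too, among them cxcr4b, pdk2b, ipcef1, ftr81, slc34a2a and aco1. Of the 76, 6 were under it on the DMSO array too, among them eef1a1b. These probe sets entered only through the benzene, formaldehyde or mix array. The higher ones had a median difference of 1.33, with 26 at least 4-fold and 5 at least 8-fold higher. The lower ones had a median difference of -1.27, with 15 at least 4-fold and 4 at least 8-fold lower. Over all 6682 genes, each represented by its probe set with the highest mean level, the median difference was 0.00, with -0.49 at the 5th and 0.63 at the 95th percentile, and 145 genes (2.17%) were higher and 39 (0.584%) lower by the same threshold.

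**Figure D1:**
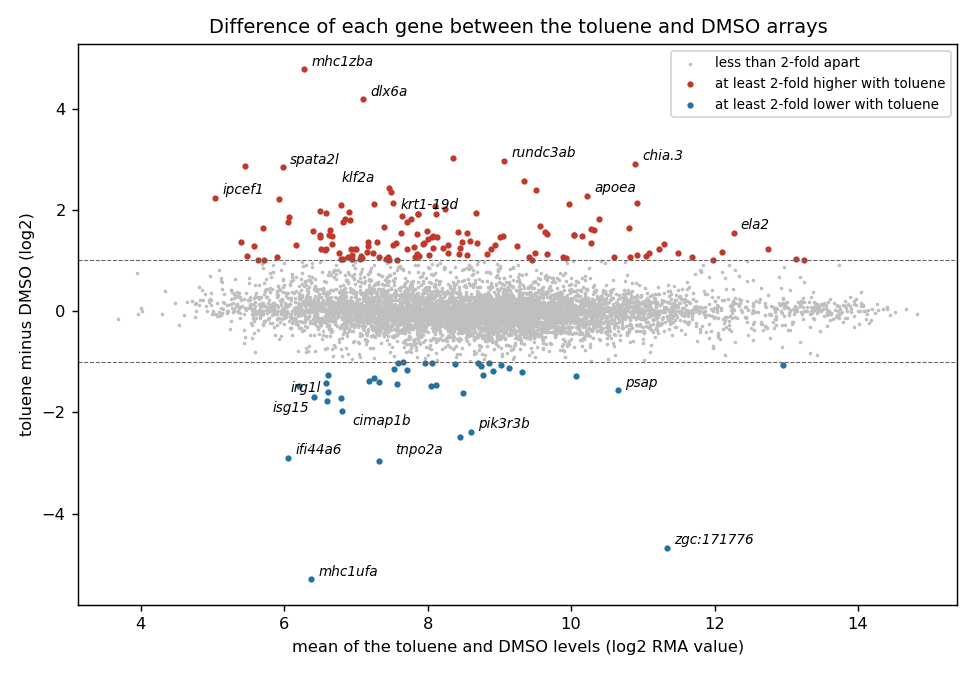
Difference between the toluene and the DMSO array (log2, y axis) against the mean level of both (log2 RMA value, x axis) for 6682 genes, 1 point each, with dashed lines at 2-fold. The 145 genes at least 2-fold higher and the 39 lower ones are coloured, and the largest differences in either direction, mhc1zba at 4.77 and mhc1ufa at -5.30, are those of class I MHC genes.

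The other exposures split the members into kinds. Of the 205 higher probe sets, 25 had toluene at least 2-fold above benzene, formaldehyde and DMSO alike, and 27 were at least 2-fold higher on all 3 single-compound arrays than on the DMSO array, so that for these the DMSO array stood apart. The remaining 153 followed neither pattern. In 90 of the 205, benzene was at least 2-fold above DMSO too while formaldehyde was not, and in 46 the formaldehyde array lay at least 2-fold below DMSO. For the 90 and the 46, the share over all 9716 probe sets was not counted, and the DMSO array also served to choose the members. Neither count can therefore be read as a trait of the members. The median levels of the 205 were 8.59 with toluene, 8.17 with benzene, 7.19 with formaldehyde, 10.03 with the BTF mix and 6.95 with DMSO. Among the 76 lower probe sets, toluene stood apart in 8 and DMSO in 24, and their median levels were 7.18 with toluene, 7.85 with benzene, 7.89 with formaldehyde, 7.56 with the mix and 8.70 with DMSO. Over all 9716 probe sets, among these 4 arrays, the number at least 2-fold above the other 3 was 25 for toluene, 17 for benzene, 31 for formaldehyde and 24 for DMSO. The number at least 2-fold below the other 3 was 8 for toluene, 27 for benzene, 149 for formaldehyde and 27 for DMSO. For toluene and DMSO these numbers equal the member counts by definition, because every such probe set is a member.

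Some members lay close to the threshold. Just inside it lay rbp4, the plasma carrier of retinol, at 1.0036, pdk2b, a kinase that shuts off pyruvate dehydrogenase, at 1.0037, and swap70b at 1.0071. Just outside lay emd, the inner nuclear membrane protein emerin, at 0.9978, fabp6, the bile acid binding protein of the ileum, at 0.9873, and the pancreatic carboxypeptidase cpa1 at 0.99. On the lower side, naalad2 (-1.0003) and the protease capn10 (-1.02) lay just inside, and leg1.1 (-0.99) and the terminal complement component c9 (-0.98) just outside. Among genes called by their represented probe set, 13 higher ones had another probe set past the level filter. These other probe sets, 14 in all, were all above 0 and 11 of them at least 2-fold. For the 5 such lower genes all 5 other probe sets were below 0 and 3 passed 2-fold. Genes in which only a dimmer probe set passed 2-fold are left out of these counts. Examples are calr, at 1.08 against -0.47 on the represented one, and bmal2, at 1.84 against 0.11. With them, the members held 153 higher and 46 lower symbols, beside 145 and 39 by the represented probe set. Over 864 genes with several probe sets, these lay 0.18 apart in the median.

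Several genes that respond to glucocorticoids lay higher in the toluene fish. Of 25 measured, 7 were at least 2-fold higher and 0 lower, with a median of 0.36, against 0.00 and 2.17% higher over all genes. The gene lists here and below share members, such as socs3a, klf9, pck1 and cfd, so their counts are not separate observations. The 7 were cebpd, klf9, pck1, fkbp5, socs3a, tsc22d3 and hsd11b2, and 5 of them were also at least 2-fold above the benzene array. By comparison, 157 of all 205 higher probe sets lay within 2-fold of benzene. fkbp5, a cochaperone that tunes the glucocorticoid receptor and is itself one of its targets, had levels of 9.08 with toluene, 7.12 with benzene, 8.04 with formaldehyde, 11.65 with the mix and 7.16 with DMSO. The toluene array was the highest of the 4 arrays without the mix, with formaldehyde between it and the near equal pair of benzene and DMSO. klf9, a zinc finger transcription factor induced by cortisol, had the same order, with 9.25 with toluene, 7.11 with benzene, 8.16 with formaldehyde, 11.62 with the mix and 7.24 with DMSO. Its difference was 2.01, and that of fkbp5 1.92.

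pck1, the enzyme that commits carbon to gluconeogenesis, was near the lower end of the scale without toluene. It had 7.49 with toluene, 5.54 with benzene, 5.8 with formaldehyde, 10.03 with the mix and 5.52 with DMSO, so that toluene lay at least 2-fold above benzene, formaldehyde and DMSO, which were close together. cebpd, a leucine zipper factor of the acute phase response, had 8.59 with toluene, 7.40 with benzene, 7.36 with formaldehyde, 11.50 with the mix and 6.45 with DMSO. Among the 4 arrays without the mix, toluene was again on top and DMSO lowest, with benzene and formaldehyde close together between them; a further cebpd probe set lay near background on the toluene and DMSO arrays and differed by -0.07. tsc22d3, which encodes the anti-inflammatory leucine zipper protein GILZ, had 8.32 with toluene, 7.54 with benzene, 7.19 with formaldehyde, 10.997 with the mix and 7.10 with DMSO, a difference of 1.22. hsd11b2, which inactivates cortisol, had 7.5 with toluene, 6.28 with benzene, 7.21 with formaldehyde, 9.32 with the mix and 6.40 with DMSO, and here toluene and formaldehyde were the high pair among the 4 arrays without the mix. socs3a, the feedback inhibitor of cytokine receptor signalling, was higher with both aromatics, at 8.59 with toluene, 8.0 with benzene, 6.89 with formaldehyde, 10.98 with the mix and 6.71 with DMSO.

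The rest of the list was uneven. cebpa and cebpb, relatives of cebpd, differed by 0.70 and 0.62, and the NF-kappaB inhibitors nfkbiaa and nfkbiab by 0.36 and 0.39, all short of 2-fold. sgk1, a kinase that cortisol induces in many vertebrates, lay the other way, at 8.72 with toluene against 9.67 with DMSO. The insulin-like growth factor binding proteins igfbp1a and igfbp1b, which rise in fasting fish, differed by -0.75 and -0.93, and tat, the tyrosine aminotransferase of the liver, by -0.41. The 7 genes were still higher on the BTF mix array than with toluene, as were 143 of all 205 higher probe sets.

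Transcription factors of the Kruppel-like family were measured with 8 genes, of which klf2a and klf9 were at least 2-fold higher and the other 6 lay between -0.09 and 0.12. klf2a, a factor of blood vessel endothelium that responds to flow, had 8.68 with toluene, 7.44 with benzene, 5.71 with formaldehyde, 10.40 with the mix and 6.24 with DMSO. Toluene lay at least 2-fold above benzene, formaldehyde and DMSO, and the formaldehyde array was lowest.

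Immediate early genes, which cells switch on within minutes of a stimulus without new protein synthesis, were mostly short of the threshold. Of 35 measured, 4 were at least 2-fold higher (socs3a, gadd45ba, nfil3-6 and zfp36l1b) and 0 lower, with a median of 0.17. The share higher over all genes was 2.17%, smaller than in this list. gadd45ba, a stress-induced regulator of cell cycle and DNA demethylation, had 8.61 with toluene, 8.30 with benzene, 6.92 with formaldehyde, 11.11 with the mix and 7.09 with DMSO, and its other probe set differed by 1.74. Both aromatics were above DMSO and formaldehyde was below it. nfil3-6, a basic leucine zipper repressor, had 7.62 with toluene against 6.39 with DMSO. Its further probe set lay near background, at 3.86 with toluene and 3.91 with DMSO, and differed by -0.05. zfp36l1b, which promotes decay of AU-rich messenger RNAs, had 8.85 with toluene against 7.71 with DMSO. The AP-1 subunit jun, at 6.99 with toluene, 6.48 with benzene, 5.47 with formaldehyde, 9.48 with the mix and 6.02 with DMSO, missed the threshold by a little. The rest lay on both sides of the vehicle level, with 26 of the 35 above 0: nr4a1 differed by 0.68, gadd45ab by 0.67 and ccn2a by 0.66, and egr1 by -0.19, atf3 by -0.34, btg2 by -0.37 and junbb by -0.67.

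**Figure D2:**
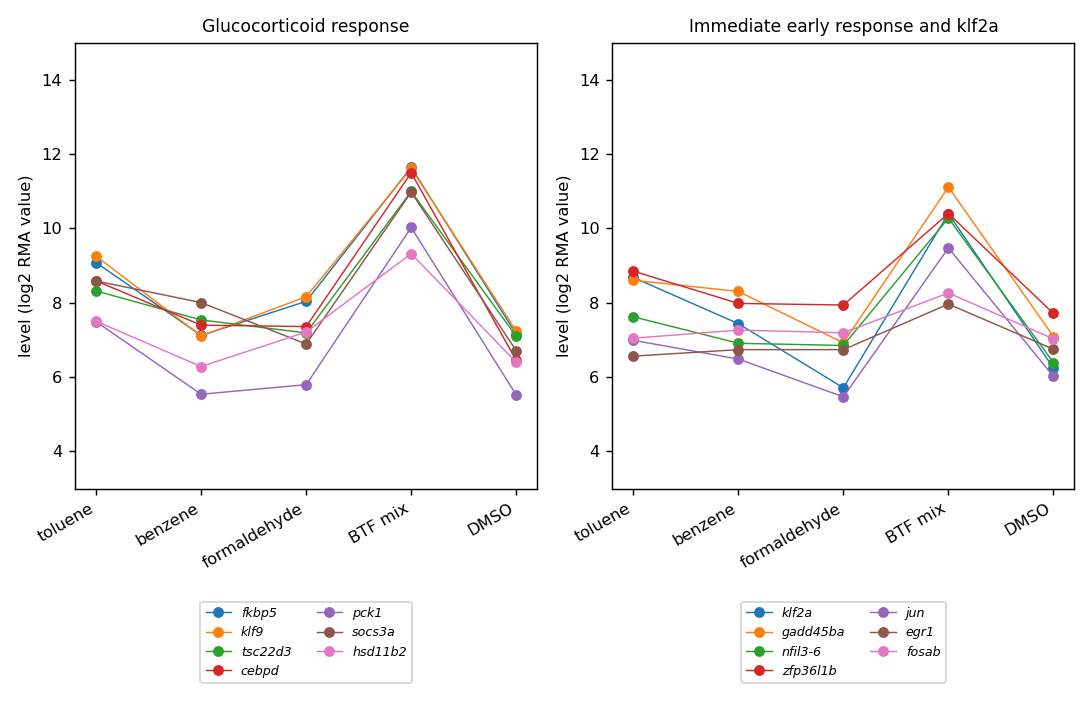
Levels (log2 RMA value, y axis) of 7 glucocorticoid response genes (left) and of klf2a and 6 immediate early genes (right) on the 5 arrays, 1 array per condition, with lines that join the values of a gene. On the left, fkbp5, klf9 and pck1 lie about 2 log2 units higher with toluene than with DMSO while benzene lies at the DMSO level; on the right, egr1 and fosab lie close to the DMSO level with toluene.

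Genes listed for the gut lining, some of which other tissues express too, were higher in part. Of 35 measured, 9 were at least 2-fold higher and 0 lower, with a median of 0.35. In 6 of the 9, toluene was also at least 2-fold above benzene, whereas 157 of all 205 higher probe sets lay within 2-fold of benzene. In 7 of the 9 the formaldehyde array lay below DMSO. chia.3, an acidic chitinase of the digestive tract, had 12.34 with toluene, 10.48 with benzene, 8.54 with formaldehyde, 13.58 with the mix and 9.44 with DMSO. That order, with toluene first, benzene next, then DMSO and formaldehyde last among the 4 arrays, recurred in chia.2, fabp2 and fabp1b.1. The related chia.2 had 11.12 with toluene against 9.52 with DMSO and chia.1 differed by 0.91, whereas chia.4 and chia.6 differed by -0.47 and -0.39, so the chitinase family was split. chia.4 also differed from the others with the mix, at 4.73 there against 12.23 with toluene. On the mix array chia.1, chia.2 and chia.6 had 13.08, 12.12 and 10.13.

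Fatty acid binding proteins and a carrier of the gut followed. fabp2, the intestinal fatty acid binding protein, had 11.02 with toluene, 9.80 with benzene, 7.49 with formaldehyde, 12.73 with the mix and 8.91 with DMSO. fabp1b.1, a liver-type fatty acid binding protein that zebrafish express in the intestine, had 8.82 with toluene, 7.35 with benzene, 6.48 with formaldehyde, 11.41 with the mix and 6.91 with DMSO, and slc13a2, a carrier of dicarboxylates such as succinate and citrate, 9.63 with toluene, 8.16 with benzene, 7.99 with formaldehyde, 12.55 with the mix and 7.70 with DMSO. For each of these 3 genes the toluene array was the highest of the 4 and at least 2-fold above benzene.

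alpi.2, intestinal alkaline phosphatase, had 7.03 with toluene, 5.56 with benzene, 5.18 with formaldehyde, 8.79 with the mix and 4.82 with DMSO, and with DMSO it lay under the level filter. slc15a1b, the peptide transporter PepT1, was also low on the 4 arrays without the mix, with 6.08 with toluene, 4.77 with benzene, 4.36 with formaldehyde, 8.71 with the mix and 4.71 with DMSO, a difference of 1.37 that rests on the lower end of the scale. rbp2a, the cellular retinol binding protein of enterocytes, had 11.66 with toluene against 10.51 with DMSO. ccl25b, a chemokine whose mammalian relative is made in gut and thymus, had 8.86 with toluene, 9.13 with benzene, 6.40 with formaldehyde, 12.08 with the mix and 7.39 with DMSO, and unlike the transporters its benzene level was above that of toluene. The brush border villin gene vil1 differed by -0.09 and the intestinal cadherin cdh17 by -0.14.

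Apolipoproteins, the protein coats of lipid particles, had 2 of 16 genes at least 2-fold higher, 0 lower and a median of 0.26. Both higher genes were apolipoprotein E. apoea had 11.36 with toluene, 9.94 with benzene, 8.4 with formaldehyde, 13.04 with the mix and 9.09 with DMSO, with toluene at least 2-fold above each of benzene, formaldehyde and DMSO. apoeb had 10.43 with toluene, 10.80 with benzene, 8.03 with formaldehyde, 12.74 with the mix and 8.90 with DMSO, with benzene above toluene. apoa1a, the main protein of high density lipoprotein, differed by 0.81 and apoa4b.2 by 0.65, while apoa2, apobb.1 and apom lay at -0.31, -0.22 and -0.39.

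Digestive enzymes of the exocrine pancreas lay on the higher side and were among the most abundant transcripts. Of 21 measured, 19 lay above 0, 6 were at least 2-fold higher and 0 lower, with a median of 0.78. ela2, an elastase, had 13.04 with toluene, 13.15 with benzene, 8.02 with formaldehyde, 14.03 with the mix and 11.49 with DMSO. The aromatics lay together above DMSO and the formaldehyde array lay far below it. pla2g1b, the pancreatic phospholipase, had 9.29 with toluene, 9.59 with benzene, 6.63 with formaldehyde, 11.46 with the mix and 7.90 with DMSO, cpa5, a carboxypeptidase, 12.06 with toluene, 12.70 with benzene, 6.79 with formaldehyde, 13.41 with the mix and 10.93 with DMSO, and amy2a, an amylase, 12.22 with toluene against 11.16 with DMSO. cel.1, the bile salt activated lipase, and ctrb.1, a chymotrypsinogen, differed by 1.07 and 1.02.

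In all 6 of these enzymes benzene was above toluene and formaldehyde at least 2-fold below DMSO. cpa1 and the elastase ela2l stayed just short of the threshold (0.99 and 0.87), and cpb1 and amy2al1 lay at -0.08 and -0.06. Hormone genes of the islets, 9 measured, had 0 at least 2-fold apart, with insulin (ins) at 0.37 and glucagon (gcga) at -0.04.

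Genes of the outer epithelium lay on the same side. Of 15 genes listed under keratins, the intermediate filaments of epithelial cells, 5 were at least 2-fold higher and 0 lower, with a median of 0.78. The list includes krtcap2 (0.14), which shares the name but is not a keratin. krt1-19d had 8.67 with toluene, 8.4 with benzene, 5.54 with formaldehyde, 10.61 with the mix and 6.32 with DMSO and 1.85 as difference on its other probe set. krt4, a keratin of the surface layer of the skin, had 11.48 with toluene, 11.54 with benzene, 8.46 with formaldehyde, 13.17 with the mix and 10.37 with DMSO. krt91 had 11.84 with toluene against 10.61 with DMSO, krt15 10.22 with toluene against 9.10 with DMSO and krt17 7.60 with toluene against 6.56 with DMSO. For 4 of these 5 keratins benzene was above toluene, and for 4 formaldehyde was at least 2-fold below DMSO. krt93 and krt95 lay at -0.46 and -0.07.

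Junction and barrier genes of the skin gave 7 of 30 at least 2-fold higher, 0 lower and a median of 0.64. muc5.1, a gel-forming mucin, had 8.69 with toluene, 9.16 with benzene, 5.8 with formaldehyde, 10.67 with the mix and 6.86 with DMSO. pkp3a, the desmosome protein plakophilin, had 9.32 with toluene against 7.77 with DMSO, perp, a tetraspan protein of desmosomes, 9.89 with toluene against 8.61 with DMSO, and ppl, the crosslinker periplakin, 8.37 with toluene against 7.30 with DMSO. capn9, a calcium-activated protease, and the S100-like icn and icn2, which mark fish skin, differed by 1.48, 1.33 and 1.48. A second perp probe set differed by 0.10. The second icn probe set had 11.58 with toluene, 10.14 with benzene, 7.84 with formaldehyde, 13.52 with the mix and 10.28 with DMSO. On it, unlike the represented one, benzene lay near DMSO. The epithelial adhesion genes epcam (0.06) and cdh1 (-0.07), expressed in nearly all epithelia, lay at the vehicle level.

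Claudins seal the space between epithelial cells. Of 17, cldni and cldnb were at least 2-fold higher, 0 were lower and the median was 0.20. cldni, a claudin of the skin, had 9.15 with toluene, 9.10 with benzene, 5.31 with formaldehyde, 11.998 with the mix and 7.07 with DMSO, and cldnb 8.79 with toluene, 8.54 with benzene, 6.23 with formaldehyde, 12.204 with the mix and 7.34 with DMSO, with toluene and benzene close together for both. cldn15la, a claudin of the gut, lay at -0.08.

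Annexins bind membranes when calcium rises, and S100 proteins are their partners. Of 19 genes, 6 were at least 2-fold higher and 0 lower, with a median of 0.38. s100a10b, the partner of annexin A2, had 10.41 with toluene, 10.45 with benzene, 7.39 with formaldehyde, 13.13 with the mix and 8.72 with DMSO; anxa1b had 7.82 with toluene against 6.03 with DMSO, anxa1a 10.80 with toluene against 9.29 with DMSO and anxa2a 8.23 with toluene against 6.89 with DMSO. anxa5b had another pattern, with 9.75 with toluene, 9.45 with benzene, 9.44 with formaldehyde, 9.30 with the mix and 8.28 with DMSO. Here the 3 single compounds and the mix lay together and the DMSO array was low, on 3 probe sets that differed by 1.46, 1.59 and 1.41. A further anxa5b probe set lay near background, at 3.81 with toluene and 3.98 with DMSO, and differed by -0.17.

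**Figure D3:**
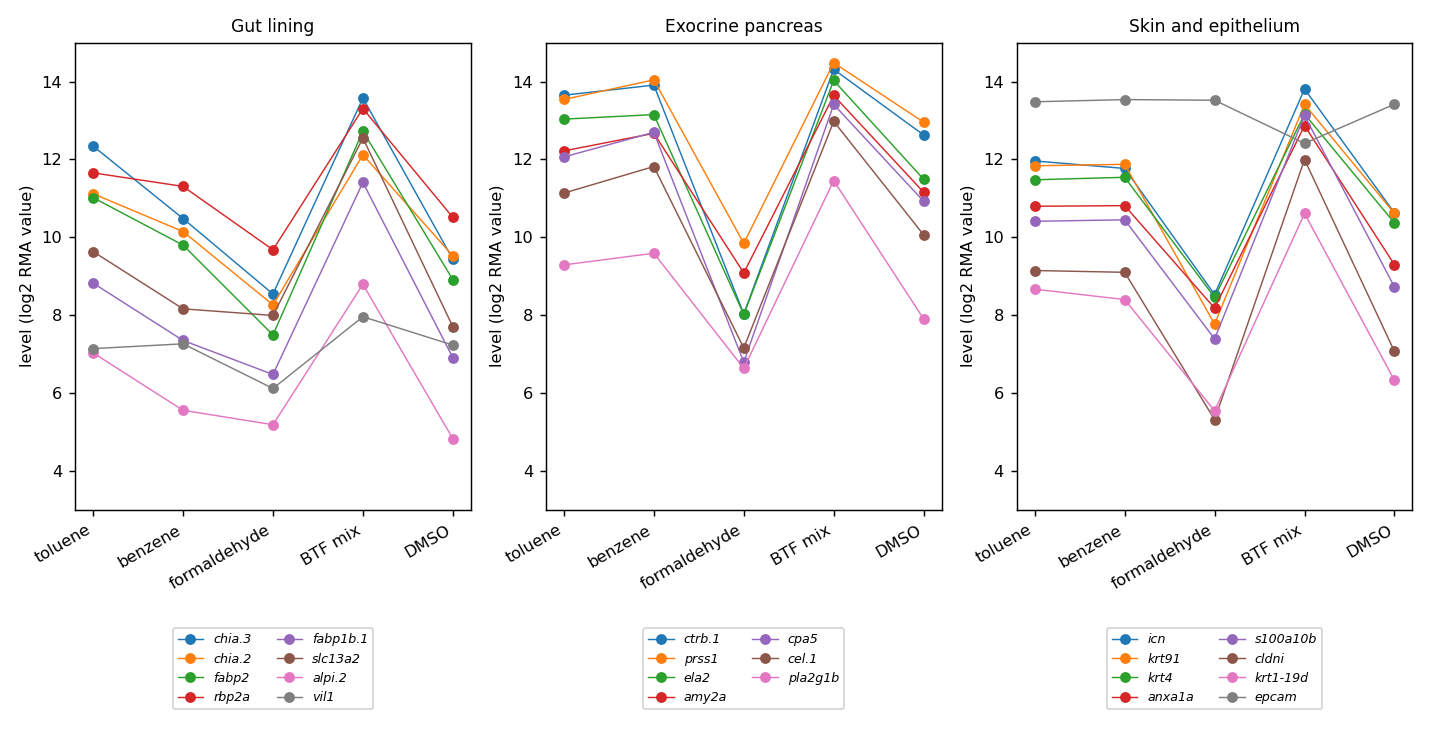
Levels (log2 RMA value, y axis) of genes of the gut lining, exocrine pancreas and skin on the 5 arrays, 1 array per condition, with lines that join the values of a gene. Gut genes such as chia.3 and fabp2 lie higher with toluene than with benzene, pancreas and skin genes lie at about the same level with both aromatics, and genes of each panel, epcam apart, lie lower with formaldehyde than with DMSO in most cases; vil1 and epcam show little difference between toluene and DMSO.

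Immune genes held the largest differences among genes with a symbol, in both directions. Class I MHC molecules present peptides to T cells and, as background, zebrafish carry different sets of class I genes on different haplotypes. Genotypes were not measured, and their part in these values was not tested. mhc1zba had 8.67 with toluene, 4.0 with benzene, 7.71 with formaldehyde, 4.33 with the mix and 3.90 with DMSO. It was high with toluene and formaldehyde and at the bottom of the scale on the other 3 arrays. mhc1ufa had 3.72 with toluene, 3.83 with benzene, 3.99 with formaldehyde, 11.17 with the mix and 9.02 with DMSO, high with DMSO and the mix and at the bottom with each single compound. Of the other members measured, mhc1laa differed by -0.18 and b2m, the light chain shared by all class I molecules, by 0.51. The class II genes cd74a, cd74b and mhc2daa differed by 0.81, 0.72 and 0.29, and none of 15 antigen processing genes was at least 2-fold apart.

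Interferon response genes were lower where they stood apart. Of 20 measured, 3 were at least 2-fold lower and 0 higher, beside 0.584% lower over all genes, with a median of -0.17. All 3 were under the level filter on the toluene array. isg15, a ubiquitin-like protein that interferon induces, had 5.71 with toluene, 6.70 with benzene, 6.05 with formaldehyde, 8.75 with the mix and 7.48 with DMSO, and irg1l, related to the enzyme that makes itaconate, 5.94 with toluene, 6.62 with benzene, 5.55 with formaldehyde, 9.47 with the mix and 7.65 with DMSO. DMSO was the highest of the 4 arrays without the mix for both. ifi44a6 had 4.61 with toluene, 7.66 with benzene, 5.45 with formaldehyde, 7.14 with the mix and 7.51 with DMSO, low with toluene and formaldehyde and at the vehicle level with benzene, the mirror image of mhc1zba. The related ifi44a1 lay the other way, short of 2-fold, at 6.67 with toluene against 6.19 with DMSO. The regulators irf7 and irf9 lay at -0.25 and 0.09, and irf1a at 0.62. The list of the large TRIM and fintrim family, 17 measured, is not confined to immune genes, and trim63a and trim63b are also on the fasting list. In it, ftr81 was higher at 6.44 with toluene against 5.37 with DMSO and ftr67 lower at 7.46 with toluene against 8.48 with DMSO.

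Innate effector genes were mixed. In the inflammation list, 4 of 17 were at least 2-fold higher (ptgdsb.1, ptgdsb.2, cfd and socs3a) and 0 lower, with a median of 0.09. Over all genes 2.17% were higher. The lipocalin-type prostaglandin D synthases ptgdsb.1 and ptgdsb.2 had 11.99 with toluene, 11.76 with benzene, 7.64 with formaldehyde, 13.06 with the mix and 9.86 with DMSO for ptgdsb.1 and 10.95 with toluene against 9.60 with DMSO for ptgdsb.2. cfd, complement factor D, the protease of the alternative pathway, was the 1 of 14 complement genes at least 2-fold higher, at 10.46 with toluene against 9.40 with DMSO, while the list had a median of -0.25 and c9, part of the membrane attack complex, had 8.10 with toluene, 9.40 with benzene, 9.80 with formaldehyde, 11.64 with the mix and 9.08 with DMSO. A second c9 probe set passed the threshold, at -1.12. Of 27 neutrophil and macrophage genes, 3 were higher (s100a10b, ctsc and cxcr4b) and mfap4.5 was lower. Of these, s100a10b is also on the annexin list and ctsc on the lysosomal list. The chemokine receptor cxcr4b had 6.03 with toluene against 4.94 with DMSO, under the level filter on both arrays. mfap4.5 is of a gene family used as a macrophage marker in zebrafish. It had 7.69 with toluene, 7.43 with benzene, 8.16 with formaldehyde, 8.75 with the mix and 9.31 with DMSO. The marker mpx differed by -0.06. The neutrophil lysozyme lyz differed by 0.70 and the gelatinase mmp9 by -0.32.

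Plasma protein genes of the liver lay slightly to the lower side, with 22 below 0 and 13 above. Of 35 plasma protein genes, rbp4 alone reached 2-fold and 0 were lower, with a median of -0.17; kng1 (kininogen) lay at -0.89, hpxb (hemopexin) at -0.80, cp (ceruloplasmin) at -0.76 and tfa (transferrin) at -0.71. In a list of 8 genes made for liver products driven by oestrogen, 2 were higher. The list also holds the oestrogen receptors esr2a and esr2b and the cathepsins ctsd and ctsl.1, none of them at least 2-fold apart. vtg4, a vitellogenin, the yolk precursor that the female liver secretes, had 12.69 with toluene, 11.88 with benzene, 9.85 with formaldehyde, 5.1 with the mix and 11.52 with DMSO, with toluene highest and the mix array far below the rest. nots, nothepsin, a protease of the female liver, had 8.78 with toluene, 7.39 with benzene, 8.01 with formaldehyde, 5.40 with the mix and 7.21 with DMSO. The other vitellogenins measured, vtg3 and vtg2, differed by 0.69 and 0.01.

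Fish in every group had gone without food for the exposure. Of 29 genes of fasting and the switch of fuels, pck1 and pdk2b were higher, hadhaa, the alpha subunit of the mitochondrial beta-oxidation complex, was lower at 8.49 with toluene, 9.49 with benzene, 8.35 with formaldehyde, 8.28 with the mix and 9.56 with DMSO, and the median was 0.01. angptl4, a fasting-induced inhibitor of lipoprotein lipase, lay at 0.85 and fbp1a, a gluconeogenic enzyme, at 0.27. Sterol synthesis genes, 13 measured, had 0 at least 2-fold apart, with hmgcs1 at -0.45 and cyp51 at -0.17. Circadian clock genes, 24 measured, had 0 at least 2-fold apart by the represented probe sets and a median of 0.00, with bmal1b at -0.62 and nr1d2b at 0.38. bmal2 disagreed between probe sets, at 0.11 on the represented one and at 1.84 on another, which had 8.06 with toluene and 6.22 with DMSO.

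**Figure D4:**
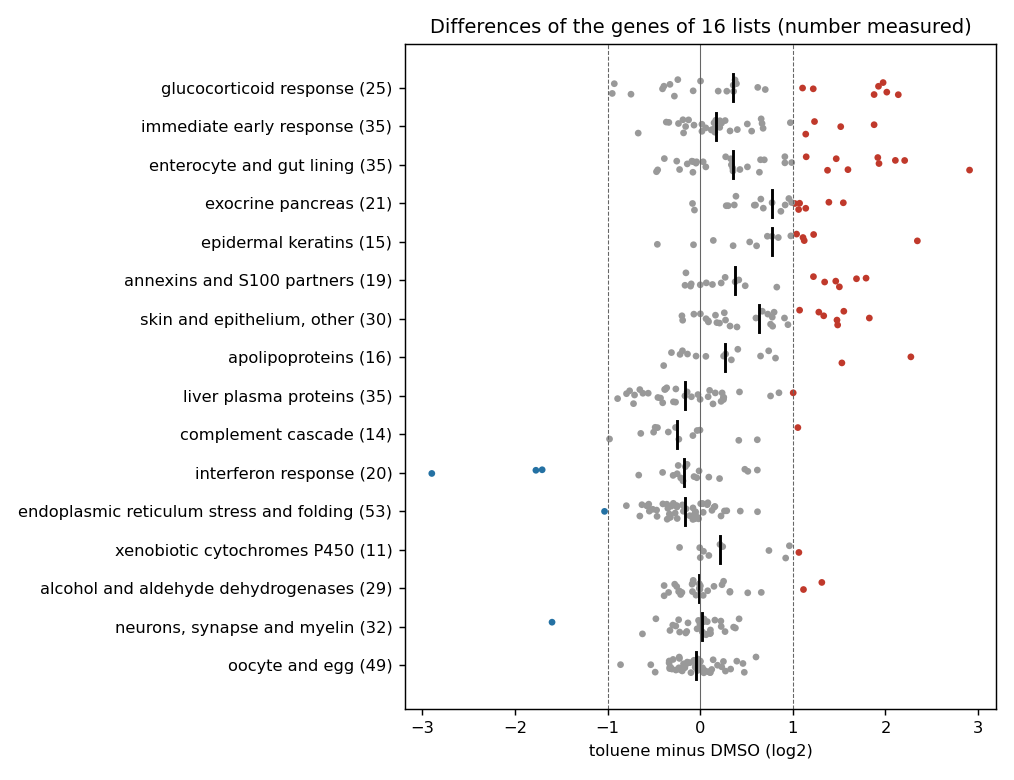
Difference between the toluene and the DMSO array (log2, x axis) for the members of 16 gene lists, 1 point per gene, with the number measured in brackets, black bars at the median of each list and dashed lines at 2-fold. Medians lie between -0.25 for the complement cascade and 0.78 for the exocrine pancreas and the keratin list. Points at least 2-fold higher are red and points at least 2-fold lower are blue.

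Genes of enzyme families that handle foreign compounds were mostly short of the threshold. The share at least 2-fold higher over all genes was 2.17%. Which of their members act on toluene in zebrafish was not tested. Of 11 cytochromes P450 of the families that oxidise foreign compounds, cyp2x10.2 was at least 2-fold higher, at 7.85 with toluene, 6.80 with benzene, 7.12 with formaldehyde, 8.68 with the mix and 6.78 with DMSO, where toluene was the highest of the 4 arrays without the mix, and the median was 0.21. cyp2p10 and cyp2x7 lay just below 2-fold, at 0.96 and 0.92. cyp3a65, the main CYP3A of zebrafish liver and gut, had 8.71 with toluene against 8.67 with DMSO. cyp1a, the classical target of the aryl hydrocarbon receptor, had 9.0 with toluene, 8.97 with benzene, 8.70 with formaldehyde, 10.78 with the mix and 8.69 with DMSO, a difference of 0.31, and the receptor ahr2 itself differed by 0.42.

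Downstream, 2 of 29 alcohol and aldehyde dehydrogenases and related reductases passed 2-fold, both higher, beside 2.17% higher over all genes. The list median was -0.01. adh8b, an alcohol dehydrogenase, had 9.10 with toluene, 8.96 with benzene, 9.34 with formaldehyde, 10.26 with the mix and 7.99 with DMSO, so that all exposed arrays lay above DMSO. dhrs11b.2, a short-chain reductase, had 8.18 with toluene against 6.87 with DMSO. Of the aldehyde dehydrogenases, aldh8a1 and aldh9a1a.1 lay at -0.39 and -0.39. None of 17 conjugating enzymes was at least 2-fold apart, with the glutathione transferases gstt1b at 0.78 and gstk1 at 0.73 at the upper end and gstt1a at -0.77 at the lower.

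Redox defence gave 3 of 35 genes at least 2-fold higher and 0 lower, with a median of 0.10. nqo1, a quinone reductase regulated by Nrf2 and by the aryl hydrocarbon receptor, had 8.36 with toluene, 8.79 with benzene, 7.36 with formaldehyde, 9.82 with the mix and 7.29 with DMSO, higher with both aromatics. gpx8, a glutathione peroxidase of the endoplasmic reticulum, had 8.62 with toluene, 7.14 with benzene, 8.28 with formaldehyde, 6.32 with the mix and 7.28 with DMSO, high with toluene and formaldehyde. selenow2b, a small selenoprotein, had 8.70 with toluene, 8.53 with benzene, 8.47 with formaldehyde, 11.90 with the mix and 7.46 with DMSO, low only with DMSO on this probe set. A second, dimmer selenow2b probe set differed by 0.69, with formaldehyde at 4.99 close to DMSO at 4.77. prdx1 (0.50) and the pentose phosphate enzymes pgd (-0.54) and taldo1 (-0.68) did not reach 2-fold.

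Genes of protein folding lay slightly to the lower side. Of 53 genes of the endoplasmic reticulum, 39 were below 0 and 14 above, with a median of -0.17, but only sel1l, an adaptor of the degradation of misfolded proteins, was at least 2-fold lower, at 8.34 with toluene, 8.85 with benzene, 9.28 with formaldehyde, 7.64 with the mix and 9.38 with DMSO. The folding sensor eif2ak3 lay at -0.63, herpud1 at -0.58, dnajc3a at -0.65 and the transcription factor atf4a at -0.80, while its paralog atf4b lay at 0.62. calr, calreticulin, disagreed between probe sets, with 7.32 with toluene against 7.79 with DMSO on the represented one and 6.91 with toluene against 5.83 with DMSO on a second, dimmer one. Among 29 cytosolic heat shock genes, hspa4a, a nucleotide exchange factor for Hsp70, was higher at 8.59 with toluene, 8.60 with benzene, 8.82 with formaldehyde, 8.49 with the mix and 6.83 with DMSO, with DMSO the single low array, and the inducible hsp70.3 differed by 0.41. Of 30 DNA damage genes, gadd45ba was higher and rbbp8, which trims DNA ends for repair by recombination, was lower at 5.87 with toluene, 5.30 with benzene, 7.5 with formaldehyde, 5.42 with the mix and 7.29 with DMSO, with the formaldehyde array at the DMSO level; mdm2, a p53 target, differed by 0.16.

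Few nerve genes passed the threshold. Of 32 genes of neurons, synapses and myelin, tac3b, the precursor of neurokinin B, was at least 2-fold lower, at 5.82 with toluene, 5.93 with benzene, 5.81 with formaldehyde, 5.29 with the mix and 7.42 with DMSO, low on every exposed array, and the median was 0.02. gap43, of growing axons, lay at -0.30 and gad1b, which makes the inhibitory transmitter GABA, at 0.38. None of 4 receptors for transmitters was at least 2-fold apart, with the glutamate receptor grik1a at 0.80, the glycine receptor subunit glrba at 0.52, the acetylcholine receptor subunit chrna1 at 0.00 and the GABA receptor gabbr1a at -0.35. None of 30 lens and photoreceptor genes was at least 2-fold apart.

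In the lists of muscle, matrix, blood and ion transport the few genes past the threshold were all higher. Over all genes, 145 (2.17%) were higher and 39 (0.584%) lower, so this direction was the more common one. The muscle list, with 1 of 58 higher, did not exceed that share, and cahz is on both the blood and the gill list. Of 58 skeletal muscle genes, pvalb2, the calcium buffer parvalbumin of fast fibres, was higher, at 13.36 with toluene, 12.92 with benzene, 13.78 with formaldehyde, 14.62 with the mix and 12.14 with DMSO, with a list median of 0.21. sparc, a collagen-binding protein, and col10a1a had 8.93 with toluene against 7.64 with DMSO for sparc and 7.8 with toluene against 6.67 with DMSO for col10a1a, out of 22 matrix genes with a median of 0.25. cahz, a carbonic anhydrase of red cells, had 7.98 with toluene against 6.62 with DMSO and fthl28, a ferritin, 8.44 with toluene, 8.50 with benzene, 8.42 with formaldehyde, 10.64 with the mix and 7.18 with DMSO; the globin hbaa1 differed by 0.91 and hbba2 by -0.33. Of 9 genes of gill and ionocytes, 3 were at least 2-fold higher (cahz, atp1a1a.2 and krt4, which red cells or skin express as well) and 0 lower, with a median of 0.70. atp1a1a.2, a sodium pump subunit, had 7.13 with toluene against 5.91 with DMSO.

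Large housekeeping groups lay at the vehicle level. None of 77 ribosomal, 50 proteasome, 86 respiratory chain or 82 replication and mitosis genes was at least 2-fold apart, with medians of 0.08 for ribosomal and 0.06 for respiratory chain genes and -0.05 for replication. Of 49 oocyte genes 0 were at least 2-fold apart, with a median of -0.05. Of 64 translation factors, eef1a1b, a copy of elongation factor 1 alpha, was lower at 5.47 with toluene, 5.74 with benzene, 5.69 with formaldehyde, 7.21 with the mix and 6.95 with DMSO. Of 27 lysosomal genes, psap, the precursor of the saposins that help break down sphingolipids, was lower at 9.87 with toluene, 9.96 with benzene, 10.12 with formaldehyde, 9.94 with the mix and 11.44 with DMSO, and ctsc, cathepsin C, higher at 9.96 with toluene against 8.95 with DMSO. In all, 15 of the 51 lists had no member at least 2-fold apart.

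Other large differences were those of single genes. dlx6a, a homeobox factor of the jaw and fin skeleton and forebrain, had 9.19 with toluene, 6.81 with benzene, 9.28 with formaldehyde, 6.02 with the mix and 5.0 with DMSO. rundc3ab had 10.56 with toluene, 8.0 with benzene, 10.45 with formaldehyde, 6.85 with the mix and 7.58 with DMSO, and both genes were high with toluene and formaldehyde and lower on the other 3 arrays. spata2l had 7.40 with toluene, 7.86 with benzene, 8.21 with formaldehyde, 5.05 with the mix and 4.56 with DMSO, high with each single compound, and its other probe sets differed by 0.11 to 2.19. ipcef1 had 6.16 with toluene, 7.19 with benzene, 7.04 with formaldehyde, 5.57 with the mix and 3.92 with DMSO, also low with DMSO. Its toluene and DMSO levels were both under the level filter. foxa, a forkhead transcription factor, had 7.17 with toluene, 8.81 with benzene, 8.22 with formaldehyde, 5.58 with the mix and 5.97 with DMSO, and toluene lay between DMSO and the other single compounds.

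On the lower side, tnpo2a, a nuclear import receptor, had 7.20 with toluene, 6.58 with benzene, 8.74 with formaldehyde, 7.78 with the mix and 9.70 with DMSO, and pik3r3b, a regulatory subunit of phosphoinositide 3-kinase, 7.42 with toluene, 9.07 with benzene, 7.43 with formaldehyde, 8.41 with the mix and 9.80 with DMSO. The second pik3r3b probe set differed by -0.76. ptena, the phosphatase that reverses the reaction of that kinase, was lower as well, at 6.86 with toluene, 7.86 with benzene, 7.69 with formaldehyde, 8.90 with the mix and 8.30 with DMSO, and the toluene array was the lowest of the 5. cimap1b, a protein of ciliary microtubules, had 5.82 with toluene, 6.41 with benzene, 6.33 with formaldehyde, 6.91 with the mix and 7.79 with DMSO. At -1.97 it was the 1 gene at least 2-fold lower in a list of 7 testis genes, with 0 higher and a median of -0.08. trpt1, a tRNA-modifying enzyme, had 5.57 with toluene, 6.04 with benzene, 6.88 with formaldehyde, 6.01 with the mix and 7.27 with DMSO.

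**Figure D5:**
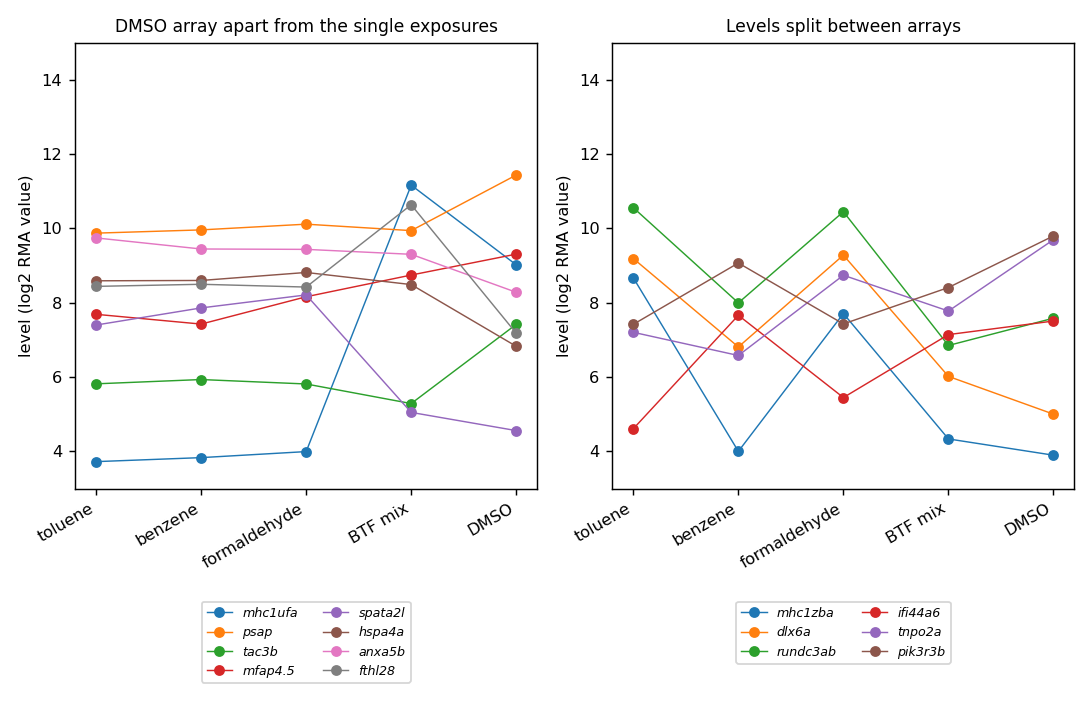
Levels (log2 RMA value, y axis) on the 5 arrays, 1 array per condition, with lines that join the values of a gene: genes for which the DMSO array lies at least 2-fold from the toluene, benzene and formaldehyde arrays (left), and genes that split between arrays (right). On the left, mhc1ufa lies below 4 on the 3 single-compound arrays and at 9.02 with DMSO; on the right, mhc1zba, dlx6a and rundc3ab are high with toluene and formaldehyde, and ifi44a6 is low on both.

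Some members carry clone-style names or none. zgc:171776 had 9.0 with toluene, 8.97 with benzene, 9.09 with formaldehyde, 5.64 with the mix and 13.67 with DMSO, the second largest difference on the lower side, with DMSO alone high. zgc:153738 had 9.86 with toluene, 8.54 with benzene, 6.79 with formaldehyde, 7.58 with the mix and 6.85 with DMSO and a second probe set at 2.72, and the toluene array was the highest of all 5. Of the 205 higher probe sets, 36 had no gene symbol in the platform annotation, among them the largest increase of all, an unnamed probe set at 9.21 with toluene, 9.19 with benzene, 8.76 with formaldehyde, 11.67 with the mix and 4.05 with DMSO. Of the 76 lower ones, 25 had none.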

How the data were processed

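The authors deposited 1 log2 value for each probe set on each array. Per the submitters' processing notes, Affymetrix Expression Console 1.1, RMA and MAS5 were used, without saying what MAS5 was used for. Array medians lay between 6.98 and 7.06 and values between 3.15 and 15.04, which limits differences at both ends of the scale. Control probe sets (115) were left out. Of 15502 others, 10795 had 1 gene symbol in the platform annotation, 135 several and 4572 none; RefSeq's gene table (GRCz12tu), joined on Entrez identifiers, updated 10711 symbols. Probe sets entered if 1 of the 5 arrays or more reached the median of the table, 7.02, and a gene was represented by its probe set with the highest mean.

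Differences were computed with Python 3.11.15, pandas 2.3.3 and numpy 2.4.6, and loess with R 4.3.3 and limma 3.58.1; the counting was tested on simulated data. Members and the 51 gene lists were chosen with earlier results of these data known. Genes were named by rule: the 14 largest differences in each direction, up to 6 per list with at least 2 members 2-fold apart, up to 3 defining members of other lists, and the 6 nearest the threshold on each side; further list members were named after their values were seen. The alternatives were other normalizations, filters, probe set rules and comparison arrays.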

Additional observations from a re-analysis of the deposited data

How the results depend on the processing

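The limits are those of 1 array per condition: no result has a spread between replicates, and levels near the bottom of the scale carry the least information. No paired analysis was possible because each condition has 1 array and no test was made. Under a repeated quantile normalization and under cyclic loess over 4 arrays, none of the 25 list medians and 150 genes that were rerun reversed; other lists and genes were not rerun. With no level filter, the median of the skin list apart from keratins was 0.36. With the 75th percentile as the filter, 48 probe sets were at least 2-fold lower, and the medians were 0.64 for the gut lining and 0.66 for annexins. With the filter on the toluene and DMSO arrays alone, the gut median was 0.57. With the benzene and formaldehyde arrays averaged in place of DMSO, the comparison gave medians of 0.62 for the gut, 1.54 for the pancreas, 0.37 for the other skin genes and -0.0092 for apolipoproteins, and gave the opposite sign for spata2l (-0.64), ipcef1 (-0.95), ftr81 (-0.99), ctsc (-0.032), adh8b (-0.050), fthl28 (-0.019) and foxa (-1.34). By size, 112 of the 150 genes moved by more than the 0.18 gap between probe sets, and 31 did not. The mean of DMSO, benzene and formaldehyde gave 47 lower probe sets, medians of 1.26 for the pancreas and 0.43 for the other skin genes, and the opposite sign for ftr81 (-0.30) and foxa (-0.50), with 99 of the 150 genes moved and 49 not. The cause of these shifts was not tested, beyond the change of filter or of comparison array by which each was made.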

Other observations

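Genes outside the lists above, named here after their values were seen, also stood apart. Both insulin-like growth factor 2 genes, which drive growth of embryo and tissue, were higher with toluene: igf2a had 7.75 with toluene, 6.27 with benzene, 6.45 with formaldehyde, 8.4 with the mix and 5.93 with DMSO, and igf2b had 7.34 with toluene, 6.39 with benzene, 5.83 with formaldehyde, 8.75 with the mix and 6.01 with DMSO. nr0b2a, the orphan receptor that represses bile acid synthesis in the liver, had 7.81 with toluene, 6.30 with benzene, 6.06 with formaldehyde, 10.15 with the mix and 6.52 with DMSO, and its second probe set differed by 1.38. slc34a2a, a carrier that takes up phosphate across the gut, had 6.94 with toluene, 5.1 with benzene, 3.95 with formaldehyde, 8.59 with the mix and 5.18 with DMSO. mthfd2, a mitochondrial enzyme of the folate cycle, had 7.20 with toluene, 5.72 with benzene, 5.65 with formaldehyde, 8.85 with the mix and 5.62 with DMSO, and hdac6, a deacetylase of tubulin, 8.60 with toluene, 7.18 with benzene, 7.49 with formaldehyde, 6.52 with the mix and 7.27 with DMSO. For each of these genes apart from igf2b, toluene was at least 2-fold above benzene, formaldehyde and DMSO.

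For other genes the DMSO array stood alone. aco1, the cytosolic aconitase that also acts as an iron sensor, had 6.82 with toluene, 6.58 with benzene, 7.06 with formaldehyde, 8.27 with the mix and 5.51 with DMSO, and slc38a5b, an amino acid carrier, 7.74 with toluene, 8.45 with benzene, 8.37 with formaldehyde, 9.91 with the mix and 6.58 with DMSO. top1mt, the mitochondrial topoisomerase, had 8.32 with toluene, 8.32 with benzene, 8.19 with formaldehyde, 6.69 with the mix and 9.5 with DMSO and its other probe set differed by -0.68. In each of these 3 genes the benzene, formaldehyde and toluene arrays lay on the same side of DMSO by at least 2-fold. cad, the enzyme that starts the synthesis of pyrimidines, disagreed between probe sets, with 9.51 with toluene against 9.5 with DMSO on the brighter one and 7.89 with toluene against 9.72 with DMSO on the other.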
